A study of Mus musculus with 22 samples.

Results

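Interferon-induced and MHC class I genes were followed in ribosome immunoprecipitates and inputs of the mouse hypothalamus. The group was defined by 7 gene symbols, Ifitm2, Ifitm3, Ifi27, B2m, H2-D1, H2-K1 and Bst2, in a table of 17440 genes. Values of 5 of the 7 were analysed, while Ifitm2 and Bst2 were not analysed here. The genes were put forward with measured values of these same libraries in view, so their values in each comparison are given as a description and carry no test of their own. The libraries came from phosphoTRAP, in which an antibody to phosphorylated ribosomal protein S6 pulls down ribosomes, and with them the messenger RNA they carry. S6 phosphorylation rises in active neurons. The immunoprecipitate (IP) of each mouse was set against its input, a portion of the same homogenate. Arcuate nucleus and median eminence were dissected together from 7 control mice (numbered 1 to 7) and 4 MCH-hM3Dq mice (numbered 1, 3, 4 and 5). hM3Dq is a designer receptor that excites neurons when its ligand clozapine N-oxide (CNO) is present, and by the name of the genotype it is directed to neurons that make melanin-concentrating hormone (MCH). All mice, controls included, were C57BL/6N, 10 to 13 weeks old, fasted for 12 h and treated with CNO by intraperitoneal injection for 1 h. How the receptor was introduced, which promoter drives it and what the control mice carry are not given in the sources used here. Of the 5 hM3Dq mice that the design text mentions, 4 are covered here.

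MHC class I molecules present peptides from inside the cell to CD8+ T cells and consist of a heavy chain, such as those encoded by H2-D1 and H2-K1, and a shared light chain, beta-2 microglobulin (B2m). Interferons bind receptors that signal through JAK kinases and STAT transcription factors and raise class I genes and many antiviral effectors, among them Ifitm3, a membrane protein that hinders viral entry, and Ifi27, a small hydrophobic membrane protein. In the uninfected brain these transcripts are known chiefly from microglia, vascular and meningeal cells, and class I transcripts are also found in some neurons.

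In build GRCm38, B2m lies on chromosome 2 (chr2:122147686-122153083, + strand), Ifitm3 on chromosome 7 (chr7:141009586-141010770, - strand), Ifi27 on chromosome 12 (chr12:103434211-103440239, + strand), H2-D1 on chromosome 17 (chr17:35262730-35267499, + strand) and H2-K1 on chromosome 17 (chr17:33996017-34000347, - strand). All 5 are protein-coding genes in GENCODE. B2m overlaps Patl2 on the opposite strand, with 0 exons of B2m overlapping an exon of Patl2. H2-D1 and H2-K1 are close paralogs. Their coding sequences were identical at 91.5% of 1077 aligned bases, and the longest stretch that both transcripts share is 91 bases of exon 4. The stretch is shown because reads within it cannot be told apart between the genes. It lies at chr17:35265911-35266001 (+ strand, GRCm38) in H2-D1 and at chr17:33997343-33997433 (- strand, GRCm38) in H2-K1:
H2-D1 and H2-K1 shared exon 4 stretch: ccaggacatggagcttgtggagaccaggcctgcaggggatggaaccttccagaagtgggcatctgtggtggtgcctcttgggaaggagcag
Of all windows of 50 bases in the transcript, 14.3% of H2-D1, 8.79% of H2-K1 and 10.0% of Ifitm3 also occurred in a transcript of another gene, against 0% for Ifi27 and 0% for B2m. How the authors' counting divided reads that match several genes is not given in the sources used here, so the values of H2-D1, H2-K1 and Ifitm3 are uncertain to that extent.

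The promoters of class I genes are known for elements bound by interferon regulatory factors, NF-kappaB and CREB-like factors. The 250 bases before the RefSeq start (GRCm38.p6) were searched on both strands for GAAANNGAA and GAANNGAAA (letters of the interferon-stimulated response element, which can overlap each other), GGGATTCCC (the kappaB letters of the class I enhancer) and TGACG (the core of the CRE-like site). Promoter sequence was at hand for 4 of the 5 genes, Ifi27 being the exception. The stretches that hold the motifs in H2-K1, H2-D1 and B2m are shown with the motif letters in capitals. They lie at chr17:34000429-34000457 (- strand), chr17:35262924-35262952 (+ strand) and chr2:122147548-122147613 (+ strand).
H2-K1 promoter stretch: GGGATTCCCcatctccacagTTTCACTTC
H2-D1 promoter stretch: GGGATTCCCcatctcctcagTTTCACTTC
B2m promoter stretch: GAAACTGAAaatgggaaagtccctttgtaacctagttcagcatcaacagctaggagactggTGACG
The H2-D1 and H2-K1 stretches were identical at 28 of 29 bases. They began 170 and 110 bases before the RefSeq start, respectively, with the kappaB letters followed by GAANNGAAA on the opposite strand. The H2-D1 stretch lies inside the GENCODE span given above, because GENCODE starts that gene at 35262730, before the RefSeq start. TGACG also occurred in both windows, nearer the start, and in B2m it followed GAAANNGAA. Among the same windows of 27025 genes, GGGATTCCC was present in 0.311%, GAANNGAAA in 6.34%, GAAANNGAA in 7.16% and TGACG in 17.9%. None of the 4 motifs occurred in the window of Ifitm3.

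Each library held between 12270 and 13193 genes at an FPKM (a level per transcript length and library size, as normalized by the authors) of 1 or more. Relative depth, read from the steps of the low values, ran from 0.686 to 1.26, and the number of reads is unknown. Control IP 5 and control inputs 1 and 6 stood apart from the others of their group, with between 1515 and 1895 genes listed at 0, against between 280 and 953 in the other libraries. The fitted differences of the 5 genes are given with and without control mice 1, 5 and 6. The sample records list all hM3Dq samples before all control samples. If handling followed that order, it cannot be told apart from genotype. Within a genotype each number names a separate mouse. The arcuate peptide neuron markers Agrp, Npy, Pomc, Kiss1, Tac2, Ghrh, Th and Sst were present for 7 of 8 genes, with a summed FPKM between 125 and 371 (median 184) in hM3Dq IP, 254 and 707 (337) in control IP, 109 and 380 (145) in hM3Dq input and 152 and 400 (233) in control input. In input, the log2 difference between genotypes was above 0 for 0 of 7 arcuate markers, 0 of 8 astrocyte markers and 1 of 8 tanycyte markers (medians -0.44, -0.40 and -0.57, against -0.02 over all genes), with 0 called by limma and 1, 3 and 0 at an unadjusted p under 0.05. In IP it was above 0 for 2 of 7, 1 of 8 and 2 of 7 (medians -0.74, -0.38 and -0.31, against -0.01 over all genes), with 0 called by limma and 3, 1 and 1 at an unadjusted p under 0.05. Vascular leptomeningeal markers had medians of -1.02 in input and -1.11 in IP, above 0 for 0 of 4 and 1 of 4. Pan-neuronal markers had medians of 0.105 and 0.207, above 0 for 9 of 12 and 10 of 12. limma called 0 of either. Its unadjusted p was under 0.05 for 2 and 2 leptomeningeal and 1 and 0 pan-neuronal markers, against 4.54% and 5.23% of all genes. Medians of the other cell type lists with values lay between -0.38 and -0.11 in input and between -0.52 and -0.19 in IP. The part of any of these cells in the results below was not tested. The hM3Dq transgene itself was not analysed here.

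The 5 genes spanned a wide range of levels. Mean FPKM over all 22 libraries was 50.3 for B2m, 16.4 for Ifi27, 13.3 for Ifitm3, 4.16 for H2-D1 and 3.83 for H2-K1. B2m stood above Ifi27 in 22 of 22 libraries. The other neighbours in this order overlapped, with Ifi27 above Ifitm3 in 16 of 22 libraries, Ifitm3 above H2-D1 in 16 of 22 and H2-D1 above H2-K1 in 14 of 22. B2m had a higher mean FPKM than 90.2% of all genes in the table and H2-K1 than 44.1%. Ifitm3 varied most, with an SD of 1.47 over the 22 libraries on the log2(FPKM + 1) scale, larger than in 99.2% of the 2643 genes of like level. The same share was 95.9% for H2-K1, 94.0% for Ifi27, 91.5% for B2m and 59.8% for H2-D1.

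**Figure D1:**
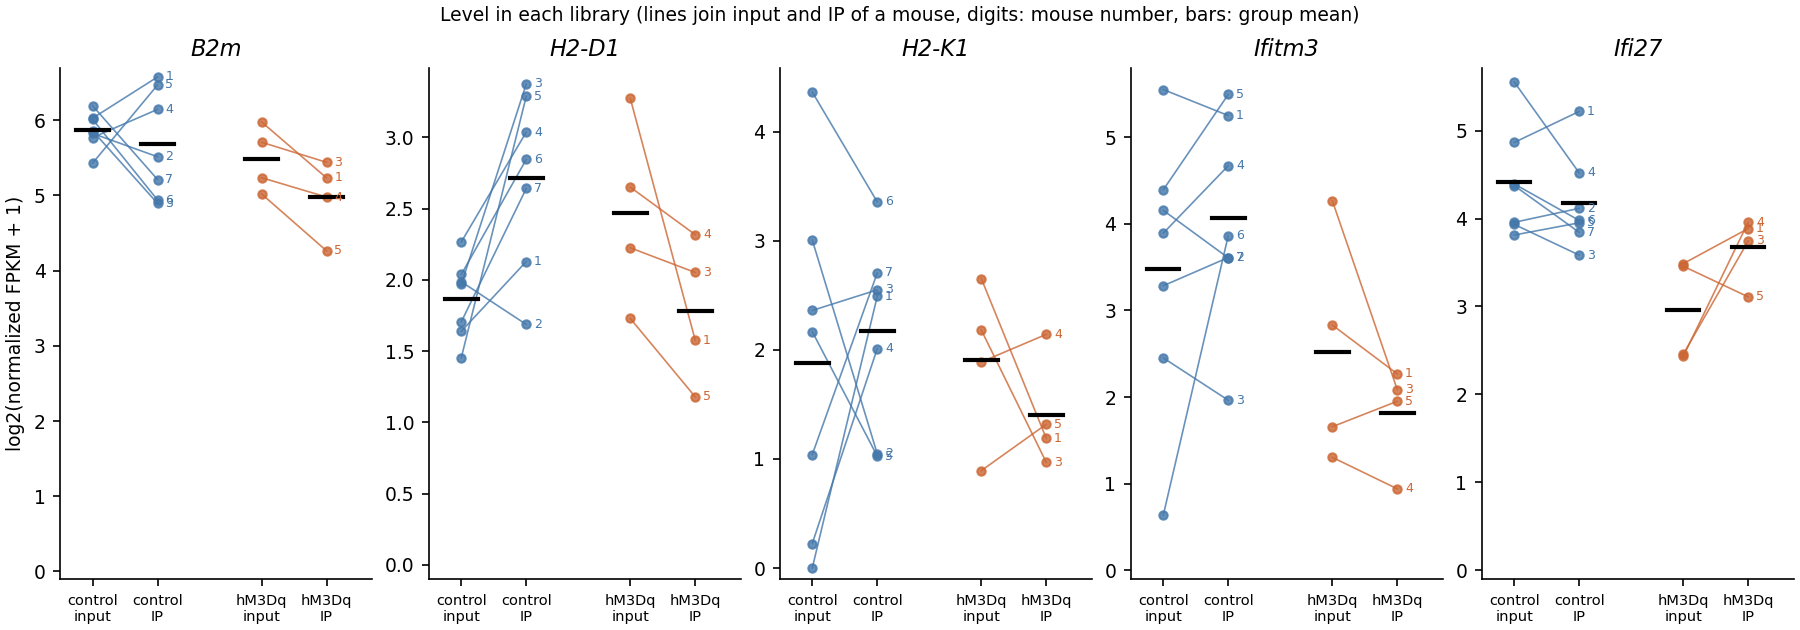
Level of each gene as log2(normalized FPKM + 1) in every library, with the input and IP of a mouse joined by a line, control mice in blue (n = 7) and hM3Dq mice in orange (n = 4), and black bars for group means. H2-D1 lines rise in 6 of 7 control mice and in 0 of 4 hM3Dq mice, and Ifi27 inputs of the hM3Dq mice lie below all control inputs. In input the genotypes are apart in 0.555% of all genes tested.

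H2-D1, which encodes the classical class I heavy chain of the D locus, was higher in IP than in input in most control mice and lower in IP than in input in all hM3Dq mice. In hM3Dq mice 1, 3, 4 and 5 the FPKM was 1.98, 3.15, 3.98 and 1.26 in IP and 8.68, 3.67, 5.28 and 2.31 in input. Control IPs ran from 2.22 through a median of 6.19 to 9.38, and control inputs from 1.74 through 2.92 to 3.81. The control IPs of mice 3, 4, 5, 6 and 7 lay above all hM3Dq IPs, and those of mice 1 and 2 lay among them. The IP exceeded the input in 6 of 7 control mice, mouse 2 being the exception, and in 0 of 4 hM3Dq mice. Mean FPKM of the control mice was 6.06 ± 2.66 (SD, n = 7) in IP and 2.70 ± 0.704 in input. That of the hM3Dq mice was 2.59 ± 1.21 (SD, n = 4) in IP and 4.99 ± 2.74 in input.

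H2-K1 encodes the heavy chain of the K locus and varied widely between libraries of the same group. Control inputs ran from a value listed at 0 in mouse 1 and 0.168 in mouse 4 through a median of 3.49 to 19.6 in mouse 6. Control IPs ran from 1.04 through 4.62 to 9.24. In hM3Dq mice 1, 3, 4 and 5 the FPKM was 1.28, 0.956, 3.41 and 1.49 in IP and 5.29, 3.54, 2.70 and 0.857 in input. All groups overlapped. The IP was above the input in 4 of 7 control and 2 of 4 hM3Dq mice. The control input with the highest H2-K1, that of mouse 6, also had the highest summed FPKM of the endothelial markers. The sum was 45.3, against between 6.91 and 29.2 in the other libraries. Of the 11 endothelial markers with values, 8 had a mean FPKM under 1, and Egfl7 had the highest mean at 7.11. The same input also had the highest tanycyte marker sum of all libraries, at 51.6, and the highest arcuate peptide marker sum of the inputs, at 400. It had 1579 genes listed at 0. The part of any of these cells in the H2-K1 value was not tested.

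The division between the paralogs varied as widely. H2-D1 made up between 13.7% and 100% of the sum of both genes, with a median of 61.4% over the 22 libraries, and the lowest and the highest share were both control inputs (mouse 6 and mouse 1). In the hM3Dq inputs H2-D1 was the larger in 4 of 4, with a share between 51.0% and 73.0%. In the control inputs it was the larger in 3 of 7. Summed into one feature, an alternative chosen after seeing the data, the pair showed a log2 IP over input difference of 0.57 (SE 0.346) in control mice and -0.69 (SE 0.306) in hM3Dq mice, against 0.85 (SE 0.285) and -0.69 (SE 0.299) for H2-D1 alone. Between genotypes the pair stood at -1.03 in IP, 0.22 (SE 0.485) in input and -1.26 in IP over input, against -0.94, 0.60 (SE 0.319) and -1.54 for H2-D1 alone.

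**Figure D2:**
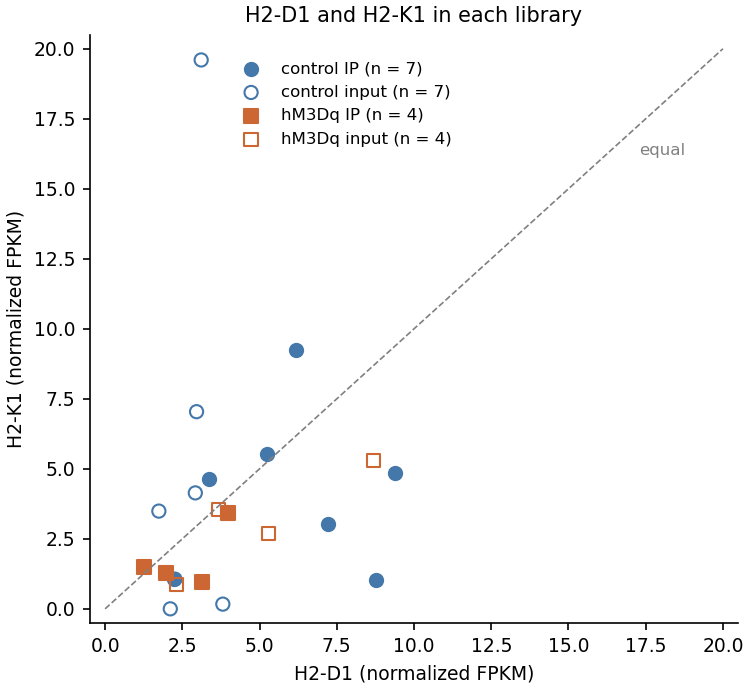
Normalized FPKM of H2-D1 (x axis) and H2-K1 (y axis) in each of the 22 libraries, filled symbols for IP and open symbols for input, blue for control and orange for hM3Dq mice, with a dashed line where both are equal. H2-D1 exceeds H2-K1 in 14 of 22 libraries, and the point at 19.6 on the y axis is the input of control mouse 6.

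B2m, the light chain needed for class I molecules to reach the cell surface, was the most abundant of the 5 and the steadiest in control inputs. Control inputs ran from 42.0 through a median of 57.0 to 72.1. Control IPs spread further, with 94.3 in mouse 1, 87.5 in mouse 5 and 69.7 in mouse 4, and between 28.7 and 44.6 in mice 2, 3, 6 and 7. The first 3 exceeded every hM3Dq IP, while mice 3, 6 and 7 lay among the hM3Dq IPs and mouse 2, at 44.6, just above the highest of them. In hM3Dq mice 1, 3, 4 and 5 B2m was 36.6, 42.4, 30.5 and 18.2 in IP and 61.9, 51.2, 36.7 and 31.4 in input. IP lay below input in 4 of 4 hM3Dq mice and in 4 of 7 control mice. The control mice averaged 55.8 ± 27.7 (SD, n = 7) in IP and 58.3 ± 9.57 in input, and the hM3Dq mice 31.9 ± 10.4 (SD, n = 4) in IP and 45.3 ± 13.9 in input.

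Ifitm3, which restricts the entry of enveloped viruses, was low in all hM3Dq IPs and high in most control IPs. In hM3Dq mice 1, 3, 4 and 5 it was 3.81, 3.24, 0.919 and 2.87 in IP and 6.12, 18.3, 1.47 and 2.15 in input. Control IPs were 44.0 in mouse 5, 37.0 in mouse 1 and 24.5 in mouse 4, between 11.2 and 13.5 in mice 2, 6 and 7, and 2.90 in mouse 3. Of the control IPs, that of mouse 3 alone lay among the hM3Dq IPs. Control inputs ran from 0.552 in mouse 6 through a median of 13.8 to 45.8 in mouse 1, and all 4 hM3Dq inputs lay within that range. The control mice averaged 20.6 ± 15.1 (SD, n = 7) in IP and 15.7 ± 14.9 in input, and the hM3Dq mice 2.71 ± 1.26 (SD, n = 4) in IP and 7.00 ± 7.79 in input.

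The 3 control mice with the highest Ifitm3 and B2m in IP also had the highest levels of vascular leptomeningeal markers. Of 8 such markers 6 had values (Igf2, Pdgfra, Dcn, Slc6a13, Col1a1 and Col1a2), and Igf2, at a mean FPKM of 32.9, made up most of the sum. Col1a1 and Col1a2, collagens that define fibroblasts, had means of 0.351 and 0.545 and were listed at 0 in 2 and 1 of 22 libraries. The summed FPKM in IP was 171 in control mouse 5, 88.5 in mouse 1 and 44.2 in mouse 4, between 7.19 and 13.0 in the other control mice and between 5.33 and 13.0 in the hM3Dq mice. In input it was 144, 126 and 122 in control mice 1, 4 and 5, between 11.4 and 44.9 in the other control mice and between 9.04 and 15.5 in the hM3Dq mice. Mural markers (8 of 9 with values) moved alike, with sums in IP of 37.1, 39.8 and 25.3 in control mice 1, 4 and 5, between 8.75 and 15.8 in the other control mice and between 7.88 and 13.1 in the hM3Dq mice. The control IPs other than those of mice 1, 4 and 5 had leptomeningeal sums within or close to the hM3Dq range, and their Ifitm3 was 11.2, 2.90, 13.5 and 11.2 in mice 2, 3, 6 and 7, against between 0.919 and 3.81 in the hM3Dq mice. Among inputs the order differed for B2m, at 64.1, 53.5 and 42.0 in control mice 1, 4 and 5. The highest B2m input, 72.1, was that of control mouse 7, with a leptomeningeal sum of 11.4. Input Ifitm3 was 45.8, 13.8 and 20.0 in control mice 1, 4 and 5. It was 16.8 in control mouse 7 and 18.3 in hM3Dq mouse 3, at leptomeningeal sums of 11.4 and 15.4. The mural sums of these inputs were 13.2 and 21.9. The part of leptomeningeal and mural cells in the Ifitm3 and B2m values was not tested. In bulk samples, fewer cells of a type and less RNA per cell cannot be told apart.

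**Figure D3:**
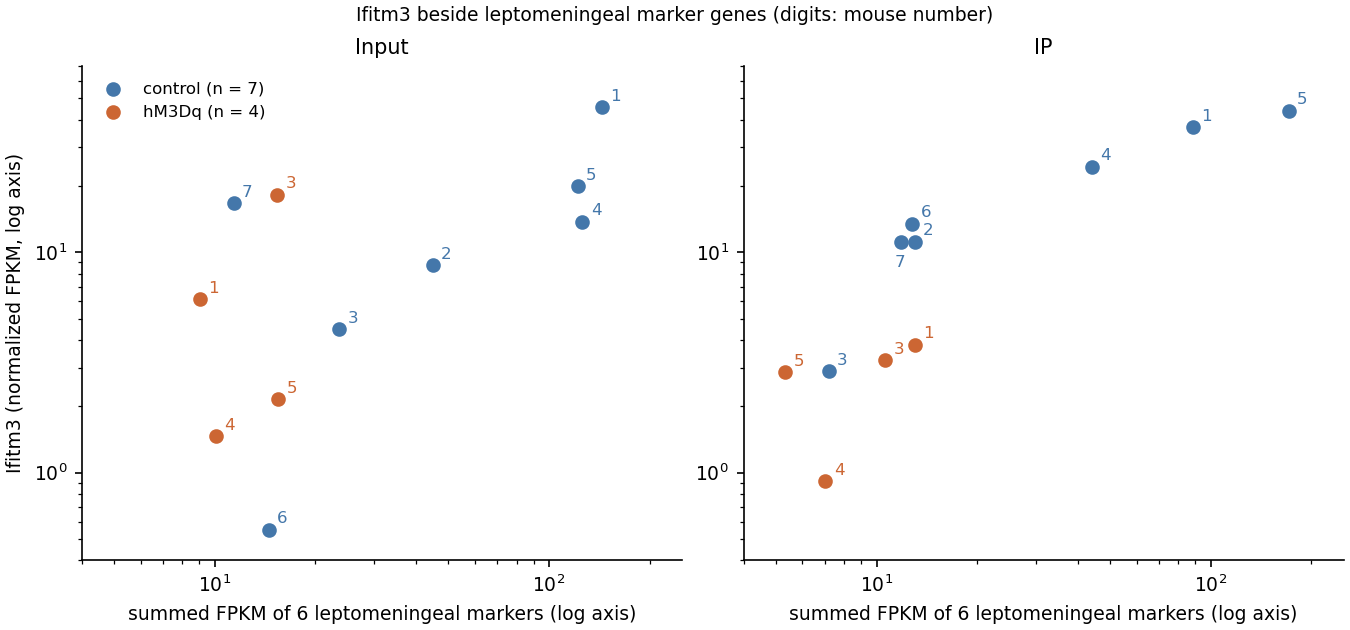
Ifitm3 (y axis, normalized FPKM, log axis) against the summed FPKM of 6 leptomeningeal markers (x axis, log axis) in inputs (left) and IPs (right), with mouse numbers beside the points, control mice in blue (n = 7) and hM3Dq mice in orange (n = 4). In IP, control mice 5, 1 and 4 lie highest on both axes, with Ifitm3 at 44.0, 37.0 and 24.5.

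Ifi27, an interferon-induced membrane protein gene, was lower in the inputs of all hM3Dq mice than in any control input. In hM3Dq mice 1, 3, 4 and 5 input FPKM was 10.2, 4.49, 4.40 and 9.99, and IP FPKM was 13.8, 12.4, 14.6 and 7.63. Control inputs ran from 13.1 through a median of 19.7 to 46.0 in mouse 4, and control IPs from 11 through 14.8 to 36.3 in mouse 1. The inputs of the genotypes did not overlap, as in 0.555% of all 13512 genes tested. The hM3Dq IPs of mice 1, 3 and 4 lay within the control IPs, and that of mouse 5 lay below them. The IP exceeded the input in 3 of 4 hM3Dq and 3 of 7 control mice. The hM3Dq mice averaged 7.27 ± 3.27 (SD, n = 4) in input and 12.1 ± 3.11 in IP, and the control mice 22.3 ± 11.7 (SD, n = 7) in input and 18.3 ± 8.61 in IP. Among the inputs, that of control mouse 4 had both the highest Ifi27 and the highest sum of microglia and macrophage markers. That sum was 178, against between 66.4 and 140 in the other inputs. The input with the sum of 140, that of control mouse 3, had an Ifi27 of 14.3. The input of control mouse 4 was also high, though not highest, in leptomeningeal (126), mural (28.7) and endothelial (29.2) marker sums. The part of any of these cells in the Ifi27 values was not tested.

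Microglia and macrophage markers, of which 13 of 15 had values, summed to between 28.4 and 133 in control IP, 49.7 and 108 in hM3Dq IP, 84.5 and 178 in control input and 66.4 and 106 in hM3Dq input. Endothelial markers (11 of 15 with values) summed to between 6.91 and 23.9 in control IP, 7.61 and 8.45 in hM3Dq IP, 8.06 and 45.3 in control input and 7.79 and 18.7 in hM3Dq input. No value of the 9 lymphocyte markers was analysed here.

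The first comparison was of IP with input within a genotype, which asks whether a transcript was held more by ribosomes with phosphorylated S6 than in the tissue at large. Within the control mice, H2-D1 had the largest positive log2 difference of the 5 at 0.85 (SE 0.285), followed by Ifitm3 at 0.59 (SE 0.386) and H2-K1 at 0.29 (SE 0.504), while B2m stood at -0.20 (SE 0.254) and Ifi27 at -0.24 (SE 0.198). None of the 5 was called by limma after adjustment over all 13999 genes tested (0 of 5, against 4.84% of all genes, 2.23% higher and 2.61% lower), and 1 of 5 had an unadjusted p under 0.05, against 19.5% of all genes. None lay on one side in all 7 mice, as 8.47% of all genes did. Without control mice 1, 5 and 6, Ifitm3 stood at 0.02, H2-D1 at 0.70, H2-K1 at 0.42, B2m at -0.47 and Ifi27 at -0.44. Without mouse 6 alone, in which input Ifitm3 was 0.552, Ifitm3 stood at 0.14. H2-K1 changed sign, to -0.08, without mouse 1, and was 0.66 without mouse 2. B2m ran from -0.40 without mouse 5 to -0.05 without mouse 6, and Ifi27 was -0.11 without mouse 4.

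Within the hM3Dq mice 4 of the 5 genes were lower in IP than in input on average. The log2 difference was -0.70 (SE 0.371) for Ifitm3, -0.69 (SE 0.299) for H2-D1, -0.51 (SE 0.153) for B2m and -0.50 (SE 0.362) for H2-K1, against 0.72 (SE 0.304) for Ifi27. limma called 0 of 5 after adjustment, against 10.3% of all 12987 genes tested (5.41% higher and 4.9% lower), and 3 of 5 had an unadjusted p under 0.05, against 26.1% of all genes. B2m and H2-D1 lay on one side in all 4 mice, as did 33.4% of all genes. The Ifitm3 value rested largely on mouse 3 and was -0.21 without it. That of H2-D1 was -0.35 without mouse 1. H2-K1 ran from -0.81 without mouse 5 to -0.18 without mouse 1, and Ifi27 was 0.45 without mouse 4.

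The second comparison was of the genotypes within IP and within input, which bears on what differed when the receptor was present under the same CNO treatment. In IP all 5 genes were lower in hM3Dq than in control mice on average, with log2 differences of -2.25 (SE 0.529) for Ifitm3, -0.94 (SE 0.340) for H2-D1, -0.76 (SE 0.420) for H2-K1, -0.70 (SE 0.337) for B2m and -0.50 (SE 0.280) for Ifi27. The median of all 13531 genes tested was -0.01. limma called 0 of 5 after adjustment, against 0.00739% of all genes, and 2 of 5 had an unadjusted p under 0.05, against 5.23%. The groups overlapped in all 5, and were apart in 0.902% of all genes. Without control mice 1, 5 and 6 the differences were -1.65 for Ifitm3, -0.91 for H2-D1, -0.67 for H2-K1, -0.46 for B2m and -0.34 for Ifi27. Without hM3Dq mouse 5, B2m stood at -0.46 and Ifi27 at -0.31, and without control mouse 1 Ifi27 stood at -0.32.

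In input, Ifi27 was lower in the hM3Dq mice by a log2 difference of -1.46 (SE 0.339), Ifitm3 by -0.96 (SE 0.75) and B2m by -0.39 (SE 0.195). H2-D1 stood higher at 0.60 (SE 0.319) and H2-K1 at 0.02 (SE 0.692). limma called 0 of 5 after adjustment, and 0% of all 13512 genes tested, and 1 of 5 had an unadjusted p under 0.05, against 4.54% of all genes. The genotypes did not overlap in 1 of 5, Ifi27, and in 0.555% of all genes. Without control mice 1, 5 and 6 the differences were -1.50 for Ifi27, -0.93 for Ifitm3, -0.43 for B2m, 0.49 for H2-D1 and 0.25 for H2-K1. H2-D1 was 0.34 without hM3Dq mouse 1 and B2m -0.23 without hM3Dq mouse 5. Ifitm3 ran from -1.55 without hM3Dq mouse 3 to -0.56 without hM3Dq mouse 4. H2-K1 had no stable sign and ran from -0.29 without control mouse 1 to 0.44 without control mouse 6.

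**Figure D4:**
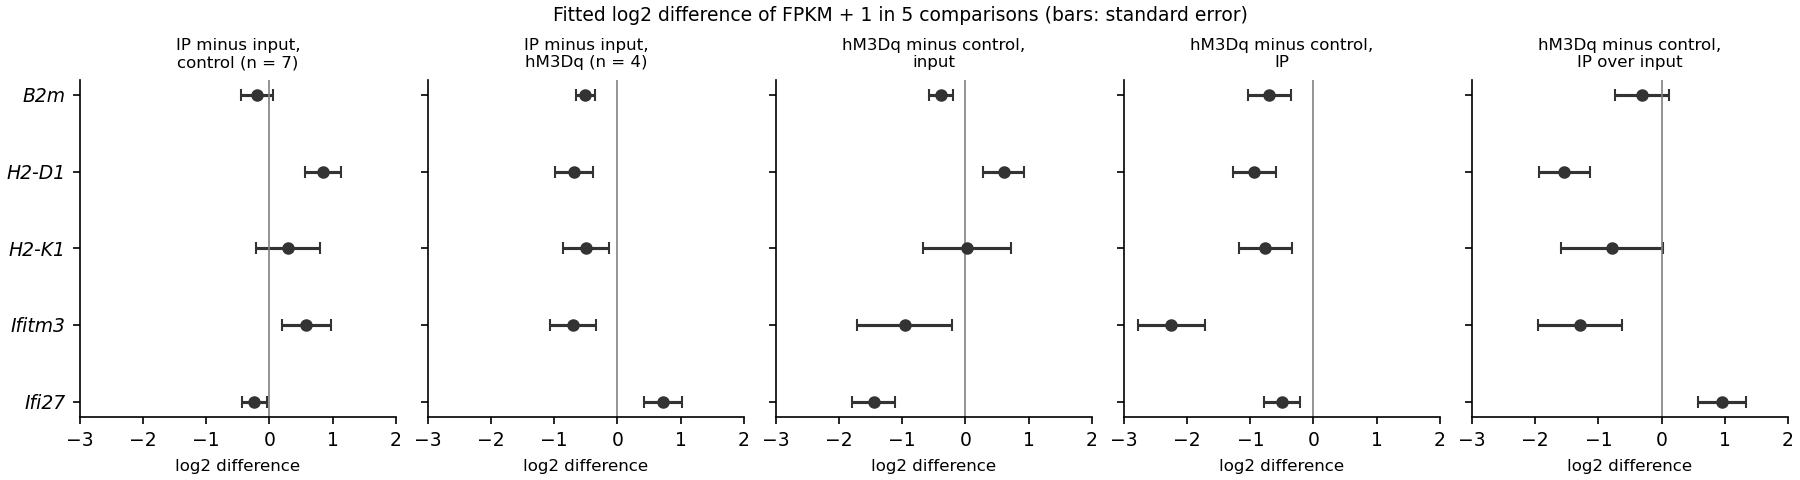
Fitted log2 difference of FPKM + 1 for each gene in the 5 comparisons, with bars of 1 standard error from limma (n = 7 control and n = 4 hM3Dq mice). In IP between genotypes all 5 points lie left of 0, from -2.25 for Ifitm3 to -0.50 for Ifi27, and 0 of 5 are called in any of the comparisons.

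The third comparison set each mouse's IP over input difference against that of the other genotype, and it shares its libraries with the comparisons above. The log2 difference between genotypes was -1.54 (SE 0.401) for H2-D1, -1.29 (SE 0.671) for Ifitm3, -0.79 (SE 0.807) for H2-K1 and -0.31 (SE 0.424) for B2m, against 0.96 (SE 0.381) for Ifi27. limma called 0 of 5 after adjustment, and 0% of all 14582 genes tested, and 2 of 5 had an unadjusted p under 0.05, against 3.18% of all genes. The per-mouse values of H2-D1 ran from -0.30 to 1.84 in control mice and from -1.7 to -0.17 in hM3Dq mice, so that control mouse 2 alone lay within the hM3Dq range. The genotypes overlapped in all 5 genes, and were apart in 0.405% of all genes. Without control mice 1, 5 and 6 the H2-D1 difference was -1.39, that of Ifitm3 -0.72, that of H2-K1 -0.92, that of B2m -0.04 and that of Ifi27 1.16. H2-K1 ran from -1.16 without control mouse 2 to -0.42 without control mouse 1. B2m was -0.11 without control mouse 5, and Ifitm3 was -0.80 without hM3Dq mouse 3. In the authors' deposited table, which compares per-mouse IP over input ratios without adjusting for the number of genes, H2-D1 had a p-value of 0.013 with a log2 fold change of -2.01 and was marked significant, as were 492 of 17440 genes (2.82%). The authors' deposited table marked 0 of the other 4, with p-values of 0.144 for Ifi27, 0.244 for B2m, 0.291 for Ifitm3 and 0.298 for H2-K1.

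Other genes of the pathway were taken from lists of class I chains, peptide loading, class II molecules, interferon-stimulated effectors, interferon ligands, and interferon receptors with their signalling proteins. Within control mice, Adar, which edits adenosine to inosine in double-stranded RNA, rose in IP against input in 7 of 7 mice, with a log2 difference of 0.72 (SE 0.168) and an adjusted p of 0.0303 from limma. Of all genes, 8.47% lay on one side in all 7 mice. The FPKM of Adar in control mice was 29.4 ± 4.41 (SD, n = 7) in IP and 17.4 ± 2.15 in input. It was the 1 gene called among 32 interferon-stimulated effectors tested, against 4.84% of all genes, and the median of those 32 was 0.21, against 0.03 over all genes. Its call was lost without any one of control mice 2, 3, 4, 6 and 7 (limma adjusted p up to 0.0936), and without the trend (0.0678). Adar overlaps Chrnb2 on the opposite strand, and whether the counting used strand is not given in the sources used here.

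Within hM3Dq mice, 4 of 24 effectors tested rose in IP and 0 fell, against 5.41% and 4.9% of all 12987 genes. Cmpk2, a mitochondrial nucleotide kinase, rose by 1.01 (SE 0.173, limma adjusted p = 0.00767), from 10.9 ± 1.36 (SD, n = 4) in input to 23.1 ± 2.88 (SD, n = 4) in IP. Eif2ak2, the kinase PKR that senses double-stranded RNA, rose by 0.94 (SE 0.224, limma adjusted p = 0.0291), from 3.73 ± 0.663 to 8.16 ± 2.05 (SD, n = 4). Adar rose by 0.87 (SE 0.160, limma adjusted p = 0.0102). Uba7, the activating enzyme for ISG15, rose by 0.55 (SE 0.151, limma adjusted p = 0.0467). Each was higher in IP in 4 of 4 mice, and 33.4% of all genes lay on one side in all 4. The median over the 24 effectors was -0.15, against 0.03 over all 12987 genes. Pan-neuronal markers had median IP over input differences of 0.437 in control and 0.501 in hM3Dq mice. Of these 12 markers limma called 3 and 5 higher and 0 lower. Oligodendrocyte markers had medians of -0.479 and -0.596, with 4 of 9 called lower and 0 higher in each genotype. The part of these cells in the effector values was not tested. In control mice Cmpk2 stood at 20.0 ± 6.16 (SD, n = 7) in IP and 11.8 ± 3.61 in input. Eif2ak2 stood at 6.16 ± 2.04 and 3.24 ± 1.05 there, and Uba7 at 31.2 ± 4.01 and 27.9 ± 16.6, with none of these called. Eif2ak2 lost its call without any one of the hM3Dq mice (limma adjusted p between 0.0614 and 0.122), and so did Uba7 (between 0.0837 and 0.154, and 0.0639 when IP and input were not paired by mouse), whereas Adar and Cmpk2 kept theirs. Uba7 also lost its call with median-of-ratios scaling (limma adjusted p = 0.06), with no filter (0.0741) and without the trend (0.106), and Eif2ak2 with no filter (0.0755).

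The most abundant effectors were Ly6e, a glycolipid-anchored surface protein, and Ifitm10, a relative of Ifitm3, at a mean FPKM of 65.2 and 55.5 over all libraries, and neither was called. In IP, Ly6e stood at 46.3 ± 4.75 (SD, n = 4) in hM3Dq and 69.0 ± 11 (SD, n = 7) in control mice. The log2 difference was -0.56 (SE 0.150, limma adjusted p = 0.81). Its highest hM3Dq IP was 52.3 and its lowest control IP 56.0. Genotypes were likewise apart in IP in 0.902% of all 13531 genes tested. In input Ly6e stood at 53.7 ± 4.17 (SD, n = 4) in hM3Dq and 78.6 ± 27.6 (SD, n = 7) in control mice. Ifitm10 stood at 42.7 ± 10.3 (SD, n = 4) and 54.0 ± 13.3 (SD, n = 7) in hM3Dq and control IP.

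Among receptors and signalling proteins, Irf2, a transcription factor that counteracts Irf1, was lower in hM3Dq IP than in input in 4 of 4 mice, with a log2 difference of -0.99 (SE 0.176) and an adjusted p of 0.00856 from limma. It was 19.6 ± 2.58 (SD, n = 4) in hM3Dq IP and 40.2 ± 6.73 (SD, n = 4) in hM3Dq input, against 26.4 ± 17.8 and 22.1 ± 7.52 (SD, n = 7) in control IP and input. Irf2 was the 1 gene called of 11 tested on that list, near the 10.3% of all genes. In the control mice limma called 0 of 11, against 4.84% of all genes. At an unadjusted p under 0.05 there were 3 of 11, against 19.5%. Jak1, the kinase that most interferon receptors use, was the most abundant of the list at a mean FPKM of 35.5. Its log2 IP over input difference was 0.53 (SE 0.151, limma adjusted p = 0.0656) in control and 0.32 (SE 0.133, limma adjusted p = 0.164) in hM3Dq mice. It was higher in IP in 7 of 7 and 4 of 4 mice. Of all genes, 8.47% lay on one side in all control mice and 33.4% in all hM3Dq mice.

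Among peptide loading and processing genes, Psme2, a subunit of the interferon-inducible PA28 proteasome activator, was lower in hM3Dq IP than in input in 4 of 4 mice. Of all genes, 33.4% lay on one side in all 4. Psme2 had a log2 difference of -0.53 (SE 0.148) and an adjusted p of 0.0491 from limma. It was the 1 gene called of 10 tested, near the 10.3% of all genes. The call was lost without any one of the hM3Dq mice (limma adjusted p between 0.0612 and 0.15), when IP and input were not paired by mouse (0.284), with a pseudocount of 0.1 (0.0534), with no filter (0.0834) and without the trend (0.124). Its partner subunit Psme1 stood at -0.20 (SE 0.138, limma adjusted p = 0.411) with a mean FPKM of 219.9, and the chaperone Canx at 0.09 (SE 0.166, limma adjusted p = 0.768) with a mean FPKM of 92.7. Of the 10 other class I chains with values, 6 were tested within each genotype and 0 were called, against 4.84% of all genes in control and 10.3% in hM3Dq mice (limma, 0 and 1 with an unadjusted p under 0.05, against 19.5% and 26.1% of all genes). The most abundant were Mr1, which presents vitamin B metabolites, at a mean of 5.04, and H2-Q2 at 4.51. Class II genes were scarce, H2-DMa at a mean FPKM of 3.76 and Cd74, the invariant chain, at 1.15, and limma called 0 of 3 tested in control and 0 of 1 in hM3Dq mice (0 with an unadjusted p under 0.05 in each). No interferon ligand gene had a value analysed here.

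Between genotypes, 0 genes of any of these lists were called by limma in IP, in input or in IP over input. In IP 3 of 30 effectors and 0 of 13 signalling genes had an unadjusted p under 0.05, against 5.23% of all genes, and the medians were -0.21 and -0.16, against -0.01 over all genes. In input 1 of 27 effectors and 1 of 11 signalling genes did, against 4.54% of all genes, and in IP over input 1 of 32 and 1 of 13 did, against 3.18%. Of the class I chains, loading and class II genes, 0 had an unadjusted p under 0.05 in any of these comparisons between genotypes.

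**Figure D5:**
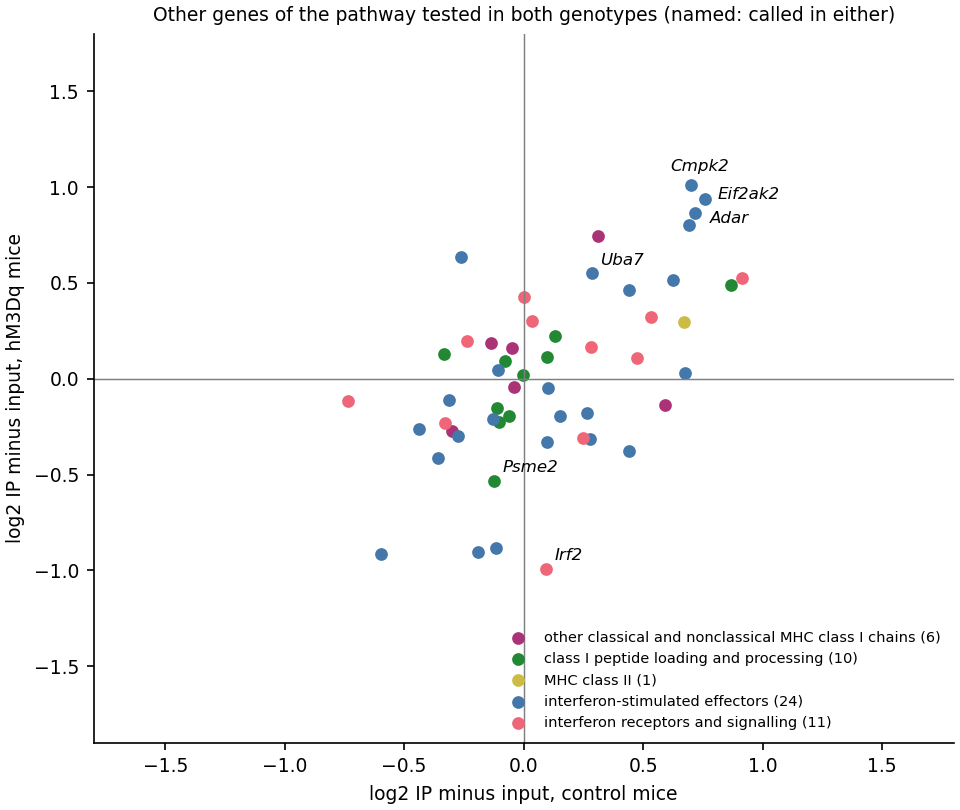
Fitted log2 IP minus input difference in control mice (x axis) and hM3Dq mice (y axis) for the 52 pathway genes other than the 5 described first that were tested in both genotypes, coloured by list, with names for genes called in either. Cmpk2, Eif2ak2, Adar and Uba7 lie above 0 on both axes, and Irf2 and Psme2 lie below 0 in the hM3Dq mice.

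The 5 genes did not move as one across libraries. Over the 11 IPs, Pearson's r of log2(FPKM + 1) was 0.811 between Ifitm3 and B2m, 0.808 between Ifi27 and B2m and 0.651 between Ifitm3 and Ifi27, while H2-D1 and H2-K1 had an r of 0.47 with each other and between -0.129 and 0.384 with the other 3. Over the 11 inputs, the first 3 values were 0.35, 0.507 and 0.322. Without control mice 1, 5 and 6, an alternative chosen after seeing the data, the first 3 were 0.72, 0.931 and 0.624 over 8 IPs and 0.738, 0.441 and 0.414 over 8 inputs, and that of H2-D1 with H2-K1 over the IPs was 0.788. The libraries share genotype and tissue composition, so these are descriptions. Genes most like the mean of the 5, among those with a mean FPKM of 5 or more, included Hist1h1c (r = 0.796), Laptm4a (0.772), Hist1h2bc (0.765), Elovl5 (0.737), Eny2 (0.731), Mrpl23 (0.728), S100a6 (0.725), Trpm3 (0.71) and Tspan6 (0.71) over the 22 libraries. Over the 11 inputs S100a6 (0.903), a calcium-binding protein gene, and Agpat5 (0.89) led, followed by Ntrk2, S100b, Pcsk1n, Sparcl1, Atp5j2, Eny2, Rtn4 and Laptm4a (between 0.835 and 0.808). Over the 11 IPs Jagn1 (0.925), the ion channel gene Trpm3 (0.909) and Ly6e (0.889) led, followed by Pcbd2, Cd164, Mrpl23, Gabarap, Yipf4, Lasp1 and Gstt1 (between 0.879 and 0.851). Of these genes, Ly6e is on the effector list and S100b on the astrocyte list.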

How the data were processed

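RNA of 22 libraries was analysed from a table of normalized FPKM deposited by the authors, and its unit was taken from the file headers. The submitters' processing notes name StringTie 1.3.4d, HISAT2 2.1.0 and build GRCm38.p6, and the normalization of the FPKM values is not given in the sources used here. The table also holds the authors' per-mouse IP over input ratios, an unadjusted p-value and a log2 fold change as a score, which were used only where named. Zeros made up 4.05% of the deposited FPKM values. Genes that reached an FPKM of 1 in 4 or more of the libraries compared were tested as log2(FPKM + 1) with limma 3.58.1 (lmFit, eBayes with trend, two-sided) in R 4.3.3, with mouse as a block for IP against input, because IP and input of a number come from one animal. Comparisons between genotypes were unpaired. P-values were adjusted over all genes tested (Benjamini-Hochberg) and called under 0.05. Fold changes on this scale understate those of low genes. The fits were also run on simulated data, drawn independently for each gene and library. The simulation held no mouse effect shared by IP and input, so it did not try the pairing. The numbers of reads are unknown, so no counting interval is given. The members and lists were chosen with earlier results of these data known. All members are named. Of each pathway list, called genes are named (up to 4 of the largest change per comparison) and, where fewer than 2 were called, the 2 of highest mean FPKM. Values were tabulated in Python 3.11.15 with pandas 2.3.3 and drawn with matplotlib 3.10.9. One gene among those most like the members is not reported here.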

Additional observations from a re-analysis of the deposited data

Results flagged for a closer look

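On the log2(FPKM + 1) scale, 44 groups of libraries were checked for a sample far from the others. Dixon's criterion was used, which chance meets in about 1 in 20 groups. On that scale 4 groups held one, all among the called pathway genes and 0 among the 5 interferon-induced and class I genes. The values that follow are FPKM. Adar in hM3Dq IP was lowest in mouse 3 at an FPKM of 25.9, against between 34.4 and 36.3 in the other 3 mice. Cmpk2 in control input was highest in mouse 5 at 19.6, against between 9.69 and 12.9. Eif2ak2 in hM3Dq input was lowest in mouse 4 at 2.74, against between 4.04 and 4.09. Uba7 in control input was highest in mouse 1 at 65.3, against between 17.9 and 23.7.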

How the results depend on the processing

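Of the 25 values of the 5 genes in the comparisons, 23 kept their sign under every setting tried (another pseudocount, filters, 2 scalings, eBayes without trend, pairing, mice left out). The exceptions were H2-K1 in control IP against input and H2-K1 in input between genotypes. Of 394 such refits 1 made a call, that of B2m in hM3Dq IP against input with a filter at an FPKM of 5 (limma adjusted p = 0.05 after rounding). The number of genes called in IP against input fell in control mice from 678 to 312 without trend and ran from 330 to 768 with mice left out. In hM3Dq mice it fell from 1338 to 552 with no filter and 592 without trend, and ran from 575 to 836 with mice left out. Without pairing IP and input by mouse (no replicate block) it was 805 in control and 739 in hM3Dq mice. In IP between genotypes the 1 call became 0 with a pseudocount of 0.1, with no filter, without trend and without control mice 1, 5 and 6, and ran from 0 to 2 with single mice left out. In input it ran from 0 to 1, and in IP over input it was 0 throughout. The causes were not tested. Genotypes were not paired because their numbers name different animals. Low FPKM values rest on a number of reads that is unknown.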
